A study of Mus musculus with 4 samples.

Results

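The proteasome is the barrel-shaped protease that degrades most ubiquitin-tagged proteins of the cell, and its subunits carry gene symbols that begin with Psm. The genes described here were every protein-coding gene whose symbol starts with Psma, Psmb, Psmc, Psmd, Psme, Psmf or Psmg followed by a number, chosen by name and not by any measured value. The rule found 49 genes of 21981 with a count in any library. All 49 were counted in each of the 4 libraries and all 49 passed the filter on low counts that left 15951 genes for testing. The rule also took in 2 genes that are not canonical subunits: Psmc3ip, a meiotic recombination factor with a proteasome-like symbol, and Psme2b, a single-exon copy of the activator gene Psme2. The thymus-specific subunit Psmb11 was not analysed here.

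RNA was sequenced from untreated cells labelled microglia, the macrophages that live in brain tissue, which came from the mouse cerebral cortex at embryonic day 16. The control group (control 1 and control 6) has the genotype Bach1 fl/fl, that is, a floxed Bach1 gene with no Cre named. The other group (cKO 2 and cKO 5) is labelled Bach1 cKO, a conditional knockout named Cx3 in the series' text, which gives no further detail of the driver. Bach1 encodes a heme-regulated transcriptional repressor that competes with NRF2 for antioxidant response elements. Whether each library is a different animal is not stated, so p-values measure the spread between these libraries, which may be technical. The standard errors and p-values of edgeR also draw on the spread of the other genes tested, not on each gene alone.

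The core particle stacks rings of alpha subunits, which gate the chamber, and of beta subunits, of which only those encoded by Psmb5, Psmb6 and Psmb7 cut peptide bonds. A regulatory particle of ATPases, encoded by the Psmc genes, and of non-ATPase subunits, encoded by Psmd genes, caps the core, binds ubiquitin chains and threads the substrate inside. In cells exposed to interferon, and constitutively in many immune cells, Psmb8, Psmb9 and Psmb10 take the places of Psmb5, Psmb6 and Psmb7 and form the immunoproteasome, which alters the peptides offered to MHC class I. When proteasomes are inhibited, the factor NRF1 (gene Nfe2l1) raises transcription of subunit genes through antioxidant response elements, and NRF2 (gene Nfe2l2) can raise some of them under oxidative stress.

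Because Bach1 and the NRF factors bind related elements, the promoters were searched for the core of that element, TGACNNNGC, on both strands of the RefSeq windows from 250 bases before to 50 bases after a RefSeq gene start (GRCm38.p6). RefSeq starts can differ from those of the deposited tables: the window of Psmd9 starts 58.8 kb and a second one of Psma6 14.6 kb inside the deposited gene. In all 44 windows were found, for 41 of the 49 genes, and 6 of them, or 14.6%, held a match, against 16.9% of all tested genes with a window. The matches are shown 5′ to 3′ with the matched letters in capitals, because they name the members on which the element can be set beside the expression values.
Psmb5, chr14:54618024-54618052, minus strand: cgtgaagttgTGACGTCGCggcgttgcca
Psmb6, chr11:70525338-70525366, plus strand: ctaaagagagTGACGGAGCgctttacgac
Psmc6, chr14:45329587-45329615, minus strand: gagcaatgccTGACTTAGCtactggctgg
Psmd12, chr11:107479278-107479299, minus strand: ggggcaaatgTGACACAGCaga
Psmd9, chr5:123228149-123228177, plus strand: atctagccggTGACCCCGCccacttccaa
Psme4, chr11:30771758-30771786, minus strand: gctcttctggTGACGCTGCagccgcagcg
These 6 genes belong to different parts of the complex: a pair of catalytic beta subunits, an ATPase, a lid subunit, an assembly chaperone and an alternative activator. A match is a description of letters and not evidence of binding.

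The 4 libraries held 17233115 to 19305078 assigned reads, so that 3 reads corresponded to 0.155 to 0.174 CPM (read counts scaled to a common library total), and the lowest read count of any of the 49 genes was 13 (Psmb8 in cKO 2). The libraries differed in cell type markers within each genotype. The summed level of 12 microglial markers, all present in every library, was 25360 CPM for control 1 and 40330 for control 6, and 9188 for cKO 2 and 35680 for cKO 5. The sum of 10 markers of cortical excitatory neurons was 1071, 323, 3635 and 295 CPM in the same order, and that of 6 endothelial markers 2565, 486, 1998 and 268 CPM. Control 1 and cKO 2 thus held more neuronal and endothelial and less microglial RNA than control 6 and cKO 5. In bulk RNA, fewer cells of a type and less RNA per cell cannot be told apart. No proteasome gene passed the test between the genotypes (edgeR quasi-likelihood test, Benjamini-Hochberg adjusted p under 0.05), where 0 of 15951 genes, or 0.00%, passed. At an unadjusted p under 0.05 the counts were 0 of 49 members and 49 of all genes, or 0.307%. DESeq2, limma-voom and edgeR's exact test also called 0 members at either threshold. The adjusted p was 0.9997 for all 49 genes, so it is not repeated below. Log2 fold changes are given as cKO against control with 1 standard error, and CPM values in the order control 1, control 6, cKO 2, cKO 5.

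**Figure D1:**
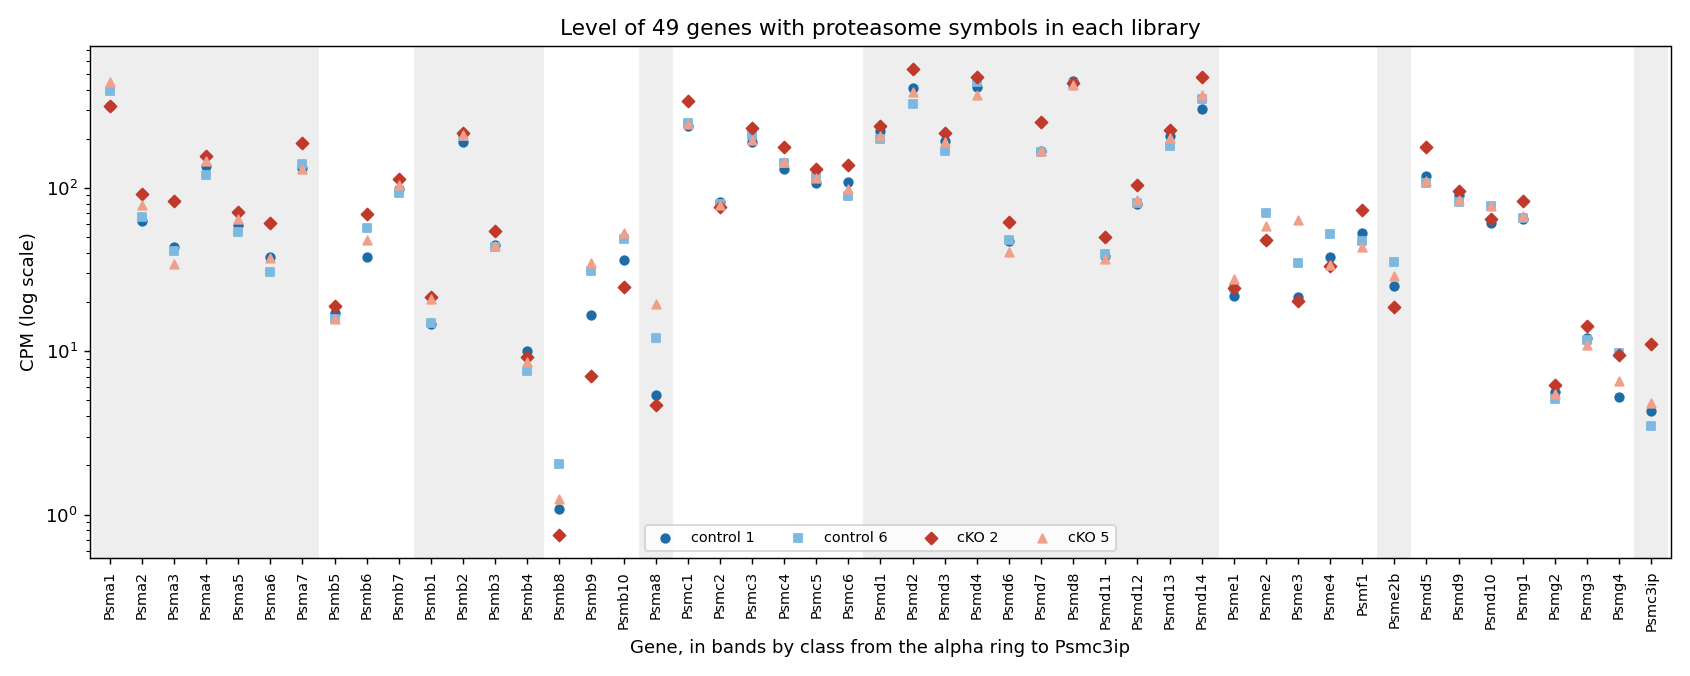
Level of each of the 49 genes in CPM (log axis) in each of the 4 libraries, in shaded bands by class, with circles for control 1, squares for control 6, diamonds for cKO 2 and triangles for cKO 5. Most core and regulatory genes have 4 points close together, whereas those of Psmb9 run from 7.05 to 34.7 CPM and those of Psma8 from 4.68 to 19.5 CPM.

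The 7 alpha ring genes Psma1 to Psma7 all had a positive log2 fold change, with a median of 0.18 against 0.03 over all genes tested, and none passed the test. Psma6, an alpha subunit, had 37.5, 30.6, 61.2 and 37.2 CPM and a log2 fold change of 0.43 ± 0.32. The high value was that of cKO 2 alone, while cKO 5 lay between the controls in CPM and just above them after TMM scaling, the scaling between libraries that the test uses. Psma3 had 43.4, 41.0, 82.7 and 34.3 CPM and a log2 fold change of 0.34 ± 0.43. Its highest and its lowest library were both cKO. Psma2 had 62.4, 66.3, 91.7 and 78.8 CPM and a log2 fold change of 0.32 ± 0.29, with both cKO libraries above both controls. Psma4 had 137, 121, 157 and 146 CPM and a log2 fold change of 0.16 ± 0.30. Psma5 had 59.6, 53.7, 71.0 and 64.3 CPM and a log2 fold change of 0.18 ± 0.29. In both the cKO libraries were the higher ones, but 66.9% of the Psma4 transcript and 76.5% of the Psma5 transcript matched other annotated genes at 95% identity or more, so their counts are uncertain. Psma1 had 318, 393, 317 and 444 CPM and a log2 fold change of 0.05 ± 0.46, and its 2 high libraries had different genotypes.

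Among the beta ring genes with a catalytic site, Psmb5 (chymotrypsin-like activity) was the steadiest of the 49 genes. It had 17.2, 15.8, 18.95 and 15.9 CPM, and after TMM scaling its highest and lowest libraries were 0.06 apart on the log2(CPM + 0.5) scale. Its log2 fold change was −0.008 ± 0.37, but 88.4% of its transcript matched other annotated genes. Psmb7 (trypsin-like activity) had 98.0, 92.9, 113 and 104 CPM and a log2 fold change of 0.11 ± 0.29. Psmb6 (caspase-like activity) had 37.9, 56.8, 68.8 and 48.3 CPM and a log2 fold change of 0.19 ± 0.39, and here the groups overlapped, with control 1 the low library. Of the non-catalytic beta genes, Psmb1 had 14.7, 15.0, 21.6 and 20.8 CPM and a log2 fold change of 0.44 ± 0.38. Each cKO library of Psmb1 exceeded each control, and after TMM scaling the nearest cKO and control libraries were 0.20 apart on the log2 scale. Psmb2 had 192, 206, 217 and 212 CPM and a log2 fold change of 0.03 ± 0.33. Psmb4 had 10.1, 7.54, 9.19 and 8.60 CPM and −0.05 ± 0.49.

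Although core subunits are built into the particle in equal numbers, their transcript levels were unequal. Levels per kilobase are given by the median length of a gene's coding transcripts, called the length of 1 transcript here and below. After it they are given by the length of all annotated exons. By the first, mean levels over the 4 libraries ran from 7.48 CPM per kb for Psmb4 to 341 for Psma1, a 45.6-fold spread over 14 constitutive core genes. By the second, they ran from 3.92 CPM per kb for Psmb1 to 172 for Psmb2, a 43.9-fold spread. The spread was thus alike by both lengths, but the genes at its ends were not. In the alpha ring Psma1 was highest by both (341 and 125 CPM per kb), while the lowest was Psma2 by 1 transcript (25.7) and Psma3 by all exons (12.9). The 6 ATPase genes ran from Psmc2 (44.2 and 15.7 CPM per kb) to Psmc1 (169 and 139), and Psmd4, the ubiquitin receptor subunit, stood at 320 and 152. How reads of near-identical copies were assigned is not stated, which touches such levels as those of Psmc1 and Psma3. Of their transcripts 82.0% and 27.0% matched other annotated genes. For Psmb4, Psma1, Psmb1 and Psmb2, at the ends of the core spread, the share was 0%.

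The 3 immunoproteasome genes differed between libraries of the same genotype, and the genotype groups overlapped in each. Their median range over the 4 libraries was 1.40 on the log2 scale. Psmb9 (2.53) and Psmb10 (1.40) ranged more than the medians of genes of like abundance, 1.02 and 0.78. Psmb8 (1.23) ranged less than the median of 1.49 for genes of its abundance. Psmb9 (chr17:34181988-34187764, minus strand) had 16.7, 30.8, 7.05 and 34.7 CPM. The lowest and the highest value were both cKO, and the log2 fold change was −0.18 ± 0.97. Psmb10 had 36.3, 48.9, 24.8 and 53.3 CPM and a log2 fold change of −0.15 ± 0.59, with the same order of libraries. Psmb8 (chr17:34197721-34201454, plus strand) had the lowest level per kilobase of the 49 genes (0.785 CPM per kb), with 1.09, 2.03, 0.751 and 1.24 CPM from 19, 35, 13 and 24 reads, and a log2 fold change of −0.70 ± 0.97. Again cKO 2 was lowest, and the groups overlapped. The microglial marker sum was higher in control 6 than in cKO 5, whereas Psmb9 and Psmb10 were higher in cKO 5. Leaving the order of those libraries aside, all 3 genes stood as the marker sums did, with cKO 2 lowest, control 1 next, and control 6 and cKO 5 highest. Below, the order of the microglial markers has this meaning. Of all tested genes 23.0% had that order, and of the 49 members 15 had it, while the reverse order was seen in 0 members and 24.2% of all genes. The part of cell type composition in these levels was not tested. Exons of Psmb9 overlap those of Tap1 on the opposite strand by 212 bases, and those of Psmb8 overlap the antisense gene Gm20496 by 498 bases. Whether the counting used strand is not stated, so the reads of such pairs cannot be told apart.

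**Figure D2:**
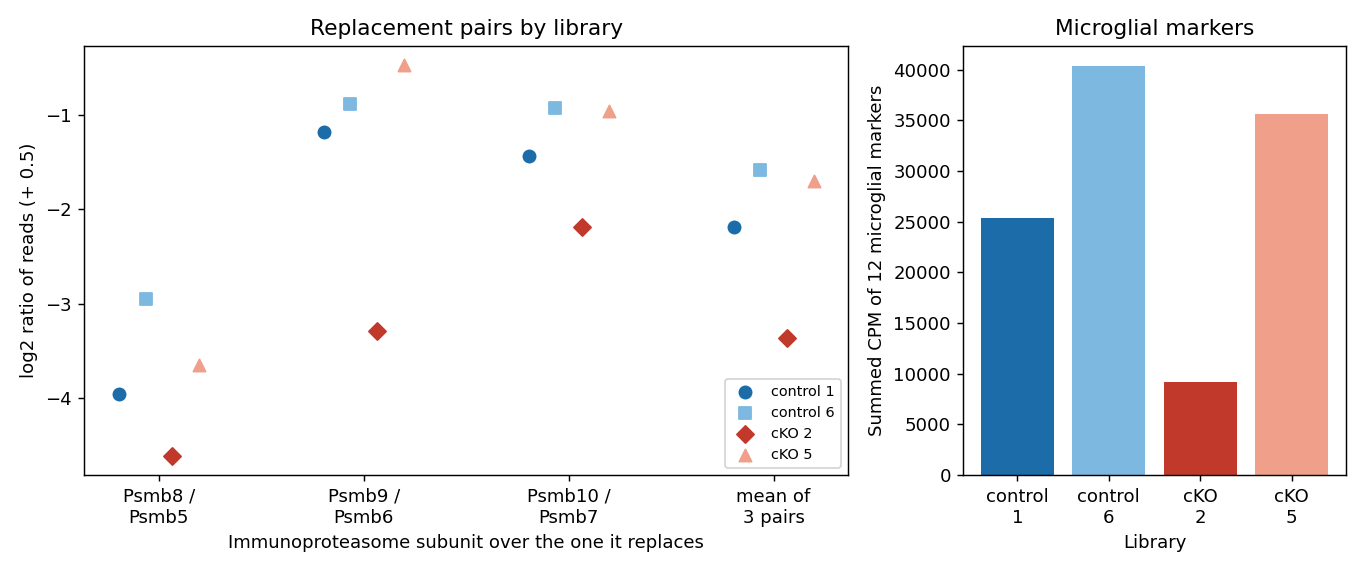
Left, log2 ratio of reads (with 0.5 added) of each immunoproteasome gene over the constitutive gene it replaces, and the mean of the 3 pairs, with 1 point per library. Right, summed CPM of the 12 microglial markers per library. cKO 2 is lowest in every pair and in the marker sum, with a mean ratio of −3.36 against −1.69 for cKO 5.

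The ratio of each immunoproteasome gene to the subunit it replaces is taken within a library and needs no scaling between libraries. It still carries any difference in cell types between libraries, and the part of cell type composition was not tested. Of the transcript of Psmb5, the lower term of 1 ratio, 88.4% matched other annotated genes. The mean log2 ratio of the 3 pairs was −2.19 for control 1 and −1.58 for control 6, and −3.36 for cKO 2 and −1.69 for cKO 5, that is, −1.89 ± 0.43 in controls and −2.53 ± 1.18 in cKO (SD, n = 2 each). The difference of −0.64 had an exact permutation p of 0.667 (two-sided; the smallest p this design allows is 0.333). The groups overlapped, and the whole spread over the 4 libraries was 3.42-fold. Without cKO 2 the difference became 0.19, so its sign rested on that library. Reads of Psmb9 were 43.96%, 54.3%, 10.2% and 71.9% of those of Psmb6. For Psmb10 over Psmb7 the shares were 37.1%, 52.7%, 21.9% and 51.4%, and for Psmb8 over Psmb5 they were 6.31%, 12.8%, 3.96% and 7.84%. In all 3 pairs cKO 2 was lowest and control 1 next. Per kilobase, Psmb9 stood at 6.05% to 42.4% of Psmb6 and Psmb8 at 1.85% to 5.99% of Psmb5 by the length of 1 transcript. By the length of all exons these were 5.24% to 36.8% and 1.05% to 3.41%. Psmb10 stood at 19.4% to 46.6% of Psmb7 by the length of 1 transcript and at 44.0% to 106% by the length of all exons, so the levels of Psmb10 and Psmb8 against their counterparts move with the gene model.

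Most genes that act with the immunoproteasome in antigen presentation had the same library order. Of 11 genes for peptide loading and the interferon response, all 11 had a negative log2 fold change with a median of −0.42. Of all genes tested, 7526 of 15951 were negative. None of the 11 passed the test, and 9 had the order of the microglial markers, as had 23.0% of all genes. The 12 microglial markers themselves were all negative too, with a median of −0.445, as were the 6 markers of monocytes and neutrophils. B2m, the light chain of MHC class I, had 914, 1319, 419 and 1481 CPM and a log2 fold change of −0.23 ± 0.85. Tap1, a subunit of the peptide transporter (chr17:34187553-34197225, plus strand), had 40.1, 47.9, 13.3 and 59.7 CPM and a log2 fold change of −0.25 ± 0.86, and was named after its values were seen because it lies between Psmb9 and Psmb8. In both genes cKO 2 was far below the other cKO library, and the groups overlapped. Calr and Pdia3, chaperones of the loading complex and of other glycoproteins, had log2 fold changes of −0.21 ± 0.57 and −0.16 ± 0.67. The motif read by interferon regulatory factors, GAAA repeated after a gap of 2 bases and searched on both strands, was found in the windows of 5 of 41 members, or 12.2%, against 3.78% of tested genes with a window. None of the 5 was Psmb8, Psmb9 or Psmb10, but the RefSeq starts of Psmb8 and Psmb9 lie 474 and 434 bases inside the deposited genes. Besides Psme1 the 5 were Psmb3, Psmd4, Psmg4 and Psmd9, whose window lies 58.8 kb inside the deposited gene. The match in Psme1, an activator gene induced by interferon, is shown with the motif in capitals.
Psme1, chr14:55578494-55578521, minus strand: gcgggaaggGAAAGCGAAAgcacagctc
Psme1 had 21.7, 24.3, 24.5 and 27.6 CPM and a log2 fold change of 0.11 ± 0.38, and its range of 0.51 on the log2 scale was narrower than those of the immunoproteasome genes.

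Psma8 replaces Psma7 in the proteasome of male germ cells, and it was measurable here. It had 5.38, 12.01, 4.68 and 19.5 CPM, a log2 fold change of 0.47 ± 0.99 and the second widest range of the 49 genes, 2.24 on the log2 scale. Its libraries stood in the order of the microglial marker sums, with control 1 and cKO 2 low. Psma7 had 132, 140, 189 and 130 CPM, with cKO 2 the high library.

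**Figure D3:**
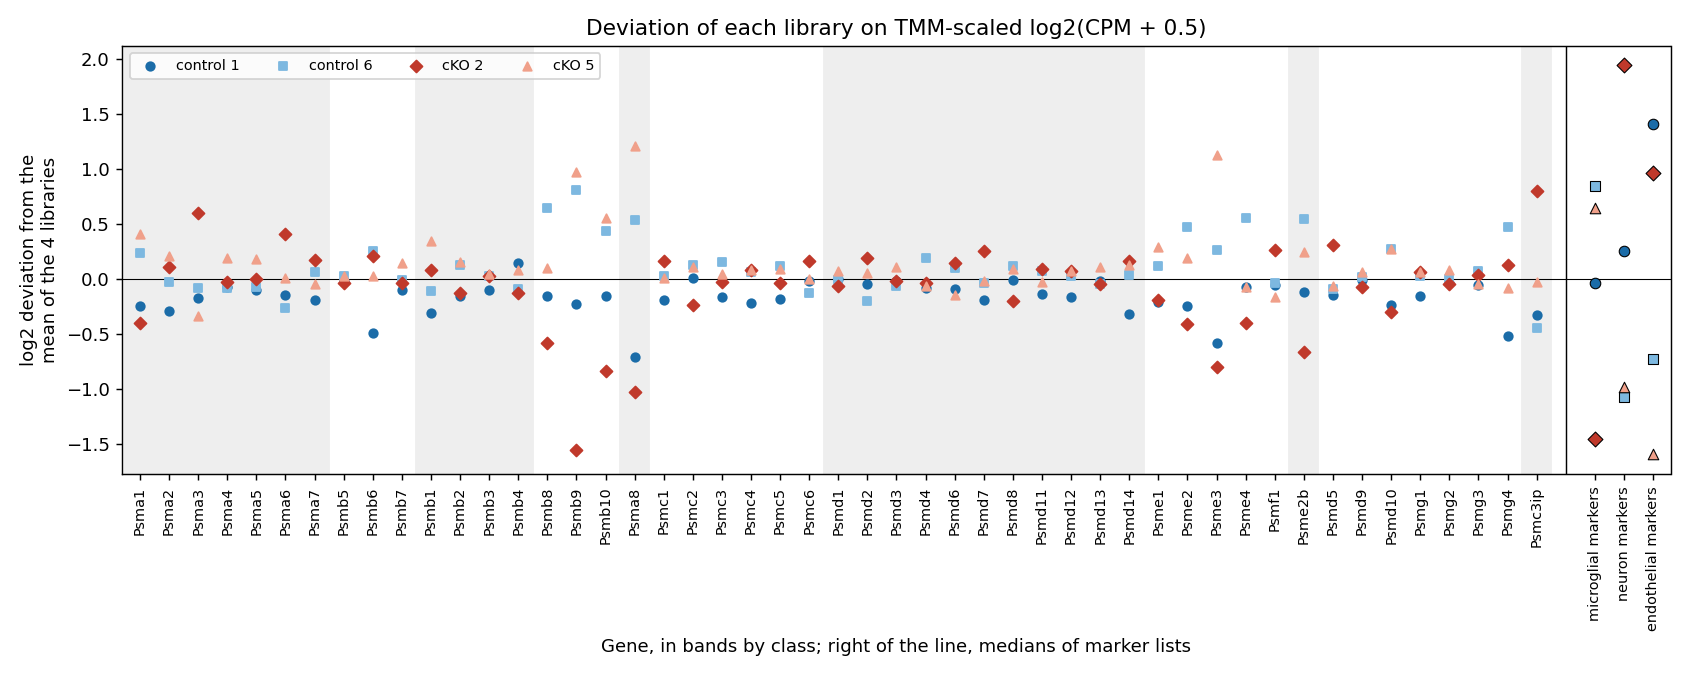
Deviation of each library from the mean of the 4 libraries on TMM-scaled log2(CPM + 0.5), for each of the 49 genes and, right of the vertical line, as medians over marker lists of microglia, excitatory neurons and endothelium. Psmb9, Psmb10, Psma8 and Psme3 spread with cKO 2 lowest, as do the microglial markers, and among the core genes Psma3 reaches 0.60 in cKO 2.

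In the regulatory particle, 5 of 6 ATPase genes and 9 of 11 non-ATPase genes had a positive log2 fold change, with medians of 0.10 and 0.07, and none passed the test. Psmc1 had 240, 249, 341 and 246 CPM and a log2 fold change of 0.17 ± 0.32, the highest of the ring. The high library was cKO 2 alone, and 82.0% of the transcript matched other annotated genes. Psmc2 had 81.8, 79.3, 76.5 and 78.2 CPM and the lowest log2 fold change of the ring, −0.13 ± 0.31. Psmc4 had 131, 142, 179 and 143 CPM and a log2 fold change of 0.15 ± 0.30, and Psmc6 had 109, 89.8, 138 and 98.3 CPM and 0.16 ± 0.29. After TMM scaling both cKO libraries of Psmc4 and Psmc6 lay above both controls, by small gaps.

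The non-ATPase subunits form the lid and parts of the base. Psmd8, a lid subunit, had 448, 433, 436 and 429 CPM and a log2 fold change of −0.10 ± 0.36, and Psmd4, which binds ubiquitin chains, had 414, 443, 475 and 372 CPM and −0.11 ± 0.35. Psmd2, a scaffold of the base, had 407, 324, 532 and 388 CPM and 0.25 ± 0.34, with 98.2% of its transcript matched elsewhere, the largest share among the members. Psmd14, the deubiquitinase of the lid, had 306, 348, 475 and 371 CPM and the highest log2 fold change of the class, 0.28 ± 0.35. Both cKO libraries exceeded both controls, with cKO 2 the high one. Psmd7, the partner of Psmd14, had 167, 165, 253 and 168 CPM and a log2 fold change of 0.24 ± 0.31. Its 3 other libraries were nearly level, with cKO 2 apart from them. Psmd12 (0.14 ± 0.29), a lid subunit, also had both cKO libraries above both controls. For Psmd3, another (0.09 ± 0.30), this held after TMM scaling alone, by 0.01 on the log2 scale, and not in CPM or with RLE factors. Psmd1, also a scaffold of the base, was among the steadiest genes with 224, 198, 238 and 209 CPM.

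**Figure D4:**
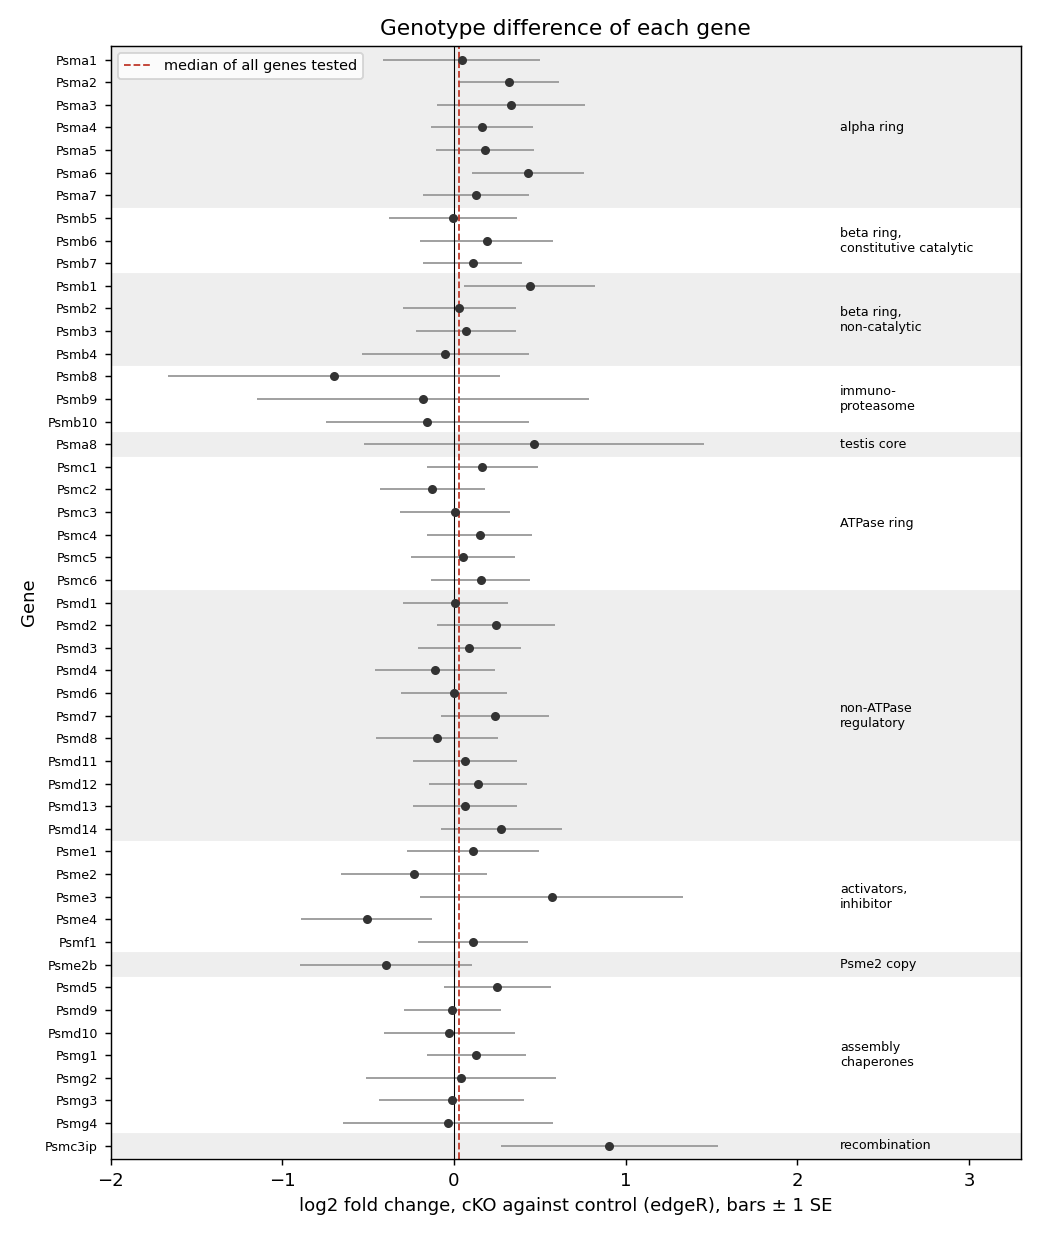
Log2 fold change of cKO against control for each of the 49 genes (points, edgeR) with 1 standard error to each side (bars), in bands by class, and the median of all genes tested as a dashed line at 0.03. The 7 alpha ring points lie right of 0 and the 3 immunoproteasome points left of it, and every value has a p above 0.05.

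The alternative caps and the inhibitor differed among themselves. Psme3, which encodes a mainly nuclear activator, had 21.4, 34.5, 20.4 and 63.3 CPM and a log2 fold change of 0.57 ± 0.77. Its high library was cKO 5 and its lowest was cKO 2. Without cKO 2 the log2 fold change was 1.27 with an unadjusted p of 0.03762 and an adjusted p of 0.9989 (edgeR), and without cKO 5 it was −0.72. Psme4, which encodes a large activator linked to histone turnover, had 37.6, 51.8, 33.1 and 33.6 CPM and a log2 fold change of −0.51 ± 0.38. Both cKO libraries were below both controls in CPM, but not after TMM scaling. Psme2, which pairs with Psme1, had 48.1, 70.6, 47.8 and 58.2 CPM and a log2 fold change of −0.23 ± 0.43, and its copy Psme2b had 24.9, 35.3, 18.8 and 28.7 CPM and −0.40 ± 0.50. The 2 had the same highest and lowest library, but 82.5% of Psme2 and 94.9% of Psme2b matched other annotated genes, so reads may have been split between them. Psmf1, the inhibitor gene, had 52.8, 47.5, 73.4 and 43.4 CPM and a log2 fold change of 0.11 ± 0.32.

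The genes for assembly were near level between genotypes: 3 of 7 had a positive log2 fold change, the median was −0.009 and none passed the test. Psmg1 and Psmg2 form a chaperone pair of the alpha ring, and Psmg3 and Psmg4 another. Psmg1 had 64.3, 65.2, 83.7 and 67.1 CPM with a log2 fold change of 0.13 ± 0.29. Psmg2 had 5.61, 5.11, 6.18 and 5.44 CPM and 0.04 ± 0.55. Per kilobase the mean levels of the pair were 75.7 and 4.73 CPM per kb by the length of 1 transcript and 52.1 and 3.21 by all exons, so the partners differed in level by both. Psmg3 (12.1, 11.8, 14.3 and 10.9 CPM) and Psmg4 (5.27, 9.75, 9.47 and 6.53 CPM) had 15.2 and 15.1 CPM per kb by 1 transcript but 4.24 and 13.97 by all exons, so whether they were level depends on the gene model. Psmg4 had the widest range of the 7, 0.99 on the log2 scale, but genes of like abundance had a median range of 1.59. Among the chaperones of the ATPase ring, Psmd5 had 117, 108, 178 and 110 CPM and a log2 fold change of 0.25 ± 0.31, with cKO 2 the high library. Psmd9 had 90.03, 81.7, 95.8 and 84.2 CPM and −0.009 ± 0.28, and Psmd10 had 61.2, 77.2, 64.8 and 77.4 CPM and −0.03 ± 0.38. Exons of Psmd9 overlap a long non-coding gene on the opposite strand by 1849 bases. Psmc3ip had 4.29, 3.48, 11.1 and 4.82 CPM and a log2 fold change of 0.91 ± 0.63, the highest of the 49, with cKO 2 the high library and 385 bases of overlap with Mlx.

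Over the 49 genes 34 had a positive log2 fold change, or 26 of the 31 constitutive core and regulatory genes, where 52.8% of all genes did. The median was 0.07 over the 49 genes and 0.11 over the 31, against 0.03 over all genes. After TMM scaling both cKO libraries lay above both controls for 15 of 49 members, or 30.6%, against 8.33% of all genes, and below both controls for 0 members, against 7.64%. The 15 were Psma2, Psma4, Psma5, Psma6, Psmb1, Psmc3ip, Psmc4, Psmc6, Psmd2, Psmd3, Psmd5, Psmd7, Psmd12, Psmd14 and Psmg1, of which 12 belong to the constitutive core or regulatory particle. The gap between the nearest cKO and control library was 0.01 to 0.30 on the log2 scale with a median of 0.05. The edgeR standard errors were 0.28 or more. These draw on the spread of other genes too: Psmb5, with a range of 0.06, had a standard error of 0.37. The count and the genes depended on the scaling. With RLE factors 13 were higher and 0 lower (8.51% and 7.44% of all genes). With library totals alone 13 were higher and 2 lower, Psmc2 and Psme4 (9.31% and 6.57% of all genes). Those 13 include Psmb2, Psmb7 and Psme1, which are not among the 15. When libraries were scaled to the microglial marker sum, 5 were higher and 0 lower, where 12.6% of all genes were higher and 1.03% lower. These were Psma8, Psmb1, Psmb9, Psmb10 and Psme3, of which Psmb1 alone is among the 15. The number with a positive log2 fold change was 41 without cKO 2, 25 without cKO 5, 24 without control 1 and 43 without control 6. In the same order the member medians were 0.123, 0.013, −0.005 and 0.172, against −0.031, 0.030, 0.087 and 0.074 over all genes. Without cKO 5 and without control 1 the members were thus below all genes. Control 1 was the lowest library for 22 of the 49 members. Neurons and endothelium had more marker RNA in cKO 2 and control 1, and their part in these differences was not tested. All genes are not a like background for the separated members, since the median range was 0.37 for members and 1.13 for all genes. Moreover, 23.0% of all genes had the order of the microglial markers and 24.2% its reverse, against 15 and 0 members. In both orders the genotype groups overlap.

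**Figure D5:**
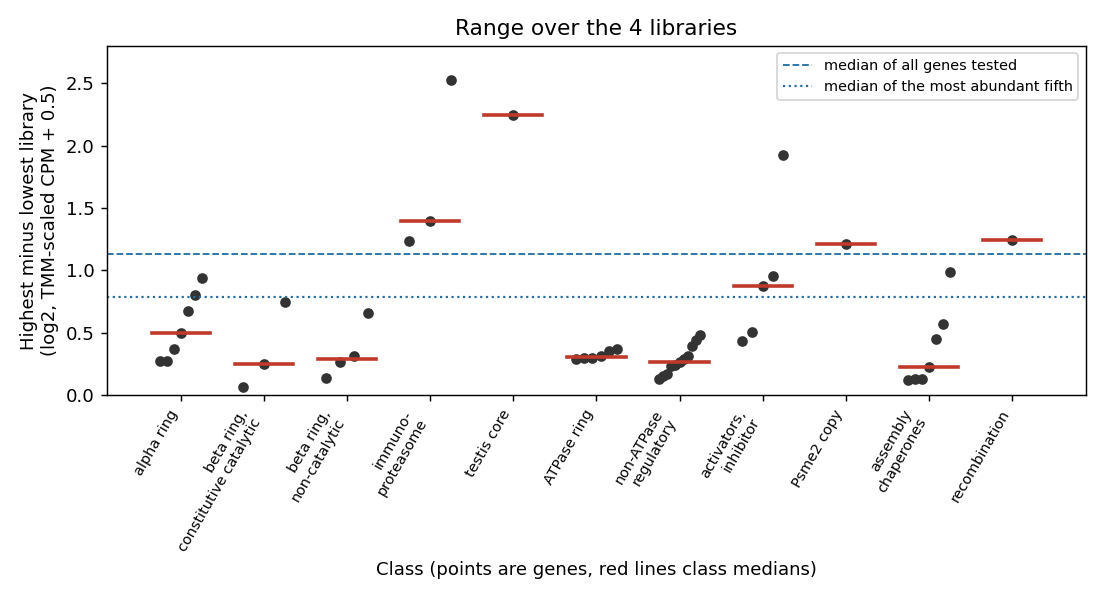
Range over the 4 libraries (highest minus lowest, log2 of TMM-scaled CPM + 0.5) of each gene by class, with red lines at class medians and dashed and dotted lines at the medians of all genes tested (1.13) and of the most abundant of 5 equal groups of genes (0.79). ATPase and non-ATPase genes lie under both lines, and Psmb9, Psma8 and Psme3 lie highest at 2.53, 2.24 and 1.92.

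The constitutive subunits varied little between libraries that differed widely in their markers. The median range over the 4 libraries was 0.34 on the log2 scale for the 14 constitutive core genes and 0.30 for the 31 core and regulatory genes, against 1.13 for all genes tested and 0.79 for genes of the same abundance, with the tested genes divided into 5 groups by mean level. For comparison, the median range was 2.28 for the microglial markers and 3.13 for those of excitatory neurons. Of the 31 genes, 29 ranged less than the median of their abundance group, the exceptions being Psma1 (0.80) and Psma3 (0.94). Over all 49 genes 40 did so, and the other 9 were, besides these, Psma8, Psmb9, Psmb10, Psme2, Psme2b, Psme3 and Psme4. The narrowest ranges were those of Psmb5 (0.06), Psmg2 (0.12) and Psmd1 and Psmg3 (0.13 each). The widest were those of Psmb9 (2.53), Psma8 (2.24) and Psme3 (1.92). These 3 genes belong to special forms of the particle, but not all genes of such forms ranged widely. Psmb8 (1.23 against 1.49) and Psme1 (0.51 against 1.02) ranged less than the medians of their abundance groups.

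The authors' deposited calls, each of 1 library against 1 library and with no replicates, also differed within a genotype. In the authors' deposited table of cKO 2 against control 1, where 31.6% of genes were called changed, Psmc3ip was called higher and Psmb9 lower. In that of cKO 2 against control 6 in the authors' deposited tables, 47.1% of genes were called, with Psma3, Psma6 and Psmc3ip higher and Psma8, Psmb8 and Psmb9 lower. The authors' deposited table of cKO 5 against control 1 called 34.8% of genes, with Psma8, Psmb9 and Psme3 higher and no member lower. The authors' deposited table of cKO 5 against control 6 called 20.6% of genes and no member. Psmb9 was thus called lower for cKO 2 and higher for cKO 5 against control 1 in the authors' deposited tables, which share libraries.

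A motif held by a larger share of the members than of all tested genes was the core read by ETS factors, CCGGAAG, searched on both strands. It was found in 15 of 41 members with a window, or 36.6%, against 18.5% of tested genes with a window and 9.93% of all genes with one. Of those 15 genes, 6 were among the members with both cKO libraries above both controls, or 40%, where 30.6% of all 49 members and 8.33% of all genes were. The 49 include 8 members without a window, among them the separated genes Psmb1, Psmd3 and Psmd7, so these shares are not over like genes. For each of the 6 genes apart from Psmc3ip 1 site is shown, that of Psma6 from its inner window. None of these sites overlaps one printed for another motif.
Psma6, chr12:55398812-55398840, plus strand: ccgccggtgctCCGGAAGcagtagccata
Psmc6, chr14:45329713-45329741, plus strand: aggcgggccagCCGGAAGgggcggagcca
Psmd2, chr16:20651615-20651643, minus strand: tgtcctccagaCCGGAAGcgccctgcgga
Psmd12, chr11:107479500-107479528, minus strand: cgtcactcgcaCCGGAAGtcgcccgctca
Psmg1, chr16:95991012-95991040, minus strand: ctcgcggcggaCCGGAAGctcttaggttc
The 15 genes with the motif had a median log2 fold change of 0.13, with 11 positive. The CCAAT box (letters CCAAT, both strands), another short promoter motif, was found in 34.1% of members with a window and 42.8% of tested genes with one. For the antioxidant response element core shown at the start, 3 of the 6 genes had a positive log2 fold change and the median was 0.07, the same as the median of 0.07 over the 35 members whose window held no match. Both cKO libraries were above both controls for 2 of the 6, Psmc6 and Psmd12, or 33.3%. Of all 49 members, with or without a window, 30.6% were, and of all genes 8.33%.

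Among the factors that control proteasome genes, 3 of 11 had a positive and 8 a negative log2 fold change, with a median of −0.18, and none passed the test. Nfe2l1 had 128, 140, 156 and 130 CPM and a log2 fold change of −0.005 ± 0.30. Nfe2l2 had 252, 326, 128 and 300 CPM and −0.46 ± 0.63, with cKO 2 lowest, as for the microglial markers, and Mafg, a small Maf partner of both, had 87.7, 131, 65.7 and 107 CPM and −0.39 ± 0.51. Bach1 had 45.8, 21.6, 30.0 and 35.4 CPM and a log2 fold change of −0.07 ± 0.47, with the highest and the lowest library both controls. A count over the whole gene does not show whether the floxed part was deleted. Of 15 other proteasome-associated genes tested, 9 had a positive and 6 a negative log2 fold change with a median of 0.07, and none passed. Pomp, the maturation factor of the core, had 141, 175, 125 and 175 CPM and −0.13 ± 0.43, the ubiquitin receptor Adrm1 had 216, 279, 260 and 236 CPM and −0.09 ± 0.36, and the deubiquitinase Usp14 had 216, 226, 207 and 279 CPM and 0.09 ± 0.41. In all 3 the groups overlapped. Of 9 ubiquitin and unfoldase genes tested, 6 were positive and 3 negative with a median of 0.16, and none passed. Ubb, a polyubiquitin gene, had 2407, 2604, 4093 and 2020 CPM and 0.16 ± 0.59, and Vcp, the unfoldase that hands proteins to the proteasome, had −0.03 ± 0.38.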

How the data were processed

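The authors deposited 4 tables, each of 1 cKO and 1 control library, with raw read counts per gene, per the file headers. The deposited normalized values are CPM, where the authors gave a count of 0 the value of 0.5 reads. The deposited log2 fold change and the deposited p-value compare 1 library with 1 library, by a test not given in the sources used here. Build mm9 and the tools HTSeq 0.6.0, TopHat2 2.0.12 and Bowtie2 2.2.3 are named per the submitters' processing notes, but 90.3% of 21922 matched genes had positions identical to GRCm38 (GENCODE annotation), so positions are given as GRCm38. How cells were isolated and whether libraries were stranded is not stated. The series' text speaks of triplicates, and further libraries were not analysed here.

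Counts of 21981 genes were joined by Ensembl ID. Genotypes were compared with edgeR 4.0.16 (R 4.3.3), quasi-likelihood test, TMM factors of 1.03, 0.917, 1.15 and 0.919, filterByExpr with a minimum count of 10, two-sided, Benjamini-Hochberg adjustment at 0.05 over 15951 genes, with 2 residual degrees of freedom. The code was tested on simulated data. Library orders and ranges used log2(CPM + 0.5) after TMM scaling; printed CPM is unscaled. A member matched elsewhere when BLAST 2.17.0 aligned its longest coding transcript to another gene with at least 95% identity over at least 100 bases, same orientation. Alternatives were RLE scaling, library totals, scaling to microglial markers, no filter, DESeq2 1.42.0, limma-voom 3.58.1, edgeR's exact test, other pseudocounts and leaving out each library. Named genes were fixed functional groups plus, per class, the most abundant gene and the highest and lowest log2 fold change, the 4 smallest p-values, the members separated by genotype, and the 3 widest and 3 narrowest ranges; from other lists, the 3 most abundant. A gene named by this rule is not reported here. The members and lists were chosen with earlier results of these data known. Floors of 3 reads cover counting error only.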

Additional observations from a re-analysis of the deposited data

How the results depend on the processing

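No paired analysis was possible because the groups share no replicate numbers. Under every alternative that was run, 0 members passed the adjusted threshold; at an unadjusted p under 0.05 the alternatives gave 0 members except Psme3 without cKO 2 and Psmb9 without cKO 5 (log2 fold change −2.03, unadjusted p 0.03618, adjusted p 0.4681, edgeR), and 74 (DESeq2), 37 (limma-voom), 94 (exact test) and 149 (no filter) genes of all. Without cKO 2 the unadjusted count over all genes was 583 and without cKO 5 it was 1784, against 49, although fewer libraries were fitted. With RLE scaling, DESeq2, the exact test and no filter, the 40 members chosen by the rule for named genes and the member median kept their direction; another pseudocount was tried for the immunoproteasome ratio (−0.60) and the core range (0.34). Other genes with values in the text were not compared in this way. With library totals alone these log2 fold changes turned positive: Psmb4 0.014, Psmb5 0.073, Psmd9 0.068, Psmd10 0.038, Psmg3 0.079 and Psmg4 0.092; limma-voom gave Psmg4 0.080. Scaling to the microglial marker sum moved the median of all genes to 1.25 and of members to 1.30, and the median range of the core genes to 2.48; it turned these positive: Psmb4 1.08, Psmb5 1.22, Psmb8 0.30, Psmb9 0.29, Psmb10 0.67, Psmc2 1.02, Psmd4 1.19, Psmd8 1.07, Psmd9 1.197, Psmd10 1.09, Psme2 0.91, Psme2b 0.62, Psme4 0.71, Psmg3 1.28 and Psmg4 1.43. The cause was not tested. Leaving out each library in turn, the member median ran from −0.005 to 0.17, the immunoproteasome ratio from −1.47 to 0.19, the core range from 0.25 to 0.34, and the log2 fold changes that changed sign ran −0.42 to 0.42 (Psma1), −1.18 to 1.28 (Psma8), −0.13 to 0.20 (Psmb2), −0.18 to 0.086 (Psmb4), −0.051 to 0.051 (Psmb5), −0.15 to 0.61 (Psmb6), −0.002 to 0.23 (Psmb7), −2.03 to 0.63 (Psmb9), −1.04 to 0.42 (Psmb10), −0.32 to 0.066 (Psmc2), −0.25 to 0.026 (Psmd4), −0.26 to 0.070 (Psmd8), −0.089 to 0.085 (Psmd9), −0.36 to 0.26 (Psmd10), −0.17 to 0.37 (Psme1), −0.58 to 0.17 (Psme2), −0.95 to 0.024 (Psme2b), −0.72 to 1.27 (Psme3), −0.095 to 0.30 (Psmf1), −0.041 to 0.13 (Psmg2), −0.092 to 0.053 (Psmg3), −0.48 to 0.59 (Psmg4). With 2 libraries per group, standard errors of about 0.3 to 1 on the log2 scale limit what could be detected, and the few reads of Psmb8 limit its ratio.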

Other observations

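Markers of other cell types also moved between the libraries. The 8 radial glia markers summed to 496, 178, 933 and 163 CPM (order: control 1, control 6, then cKO 2, cKO 5), and 6 interneuron markers to 63.7, 39.5, 255 and 35.6 CPM. Markers of border-associated macrophages, 7 genes, summed to 244, 288, 130 and 539 CPM, those of pericytes and fibroblasts, 6 genes, to 3360, 657, 3103 and 245 CPM, those of monocytes and neutrophils, 6 genes, to 59.0, 75.3, 28.3 and 88.7 CPM, and 6 erythroid genes to 301, 110, 217 and 111 CPM. Of the lymphocyte markers none passed the filter.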
